A study of Mus musculus with 64 samples.

Results

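Megakaryocyte-erythroid progenitors (MEP) sorted from the spleens of scat mice in anemic crisis were compared with MEP sorted from the spleens of young wild-type (WT) mice, which the series' design text calls littermates without giving litters. The comparison uses 6 of the 64 RNA-seq libraries of the study, chosen by their labels: spleen, MEP, and a disease state of critical or none at the first sampled stage. The 3 crisis mice carried the strain label CbyJ.Cby-Rasa3(scat)/Llp scat/scat and were 23, 28 and 26 days old. The 3 young WT mice carried CbyJ.Cby-Rasa3(scat)/Llp +/+ and were 28, 23 and 25 days old. The labels list no treatment, and every mouse belonged to the same congenic line on a BALB background. The other libraries hold whole tissue, another sorted progenitor population, bone marrow, and later stages. Of these, the bone marrow MEP of the same 6 mice are used below to ask whether the crisis response of spleen MEP differed from that in marrow.

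MEP are progenitors that give rise to red cells and to megakaryocytes, the cells that shed platelets. The scat mutation lies in Rasa3, whose product, a GTPase-activating protein, returns the small GTPases Ras and Rap1 to their inactive state, and homozygous mice pass through episodes of severe anemia and thrombocytopenia. In the mouse, the spleen is a main site of the extra red cell production that follows anemia, and that response draws on erythropoietin, on bone morphogenetic proteins and on hypoxia.

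The level given for each library is a normalised count, rescaled here so that the 6 libraries have the same median ratio to their gene-wise mean. Differences are on the log2(level + 1) scale, crisis minus young WT, with the standard error (SE) and the Benjamini-Hochberg adjusted p of limma over all genes tested, and a gene passed at an adjusted p under 0.05. The deposited columns summed to 47.3 to 50.5 M normalised counts in crisis and to 34.7 to 49.9 M in young WT. Values of genes near 0 lay on fixed steps, from which between 32.8 and 42.8 M reads were estimated behind each crisis library and between 29.9 and 43.5 M behind each young WT library. Columns of crisis 1, 2 and 3 and of young WT 3 showed 3 different steps each, as sums of separately scaled runs would, while young WT 1 and 2 showed 1 step each.

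Transcripts taken here as MEP markers were present in both groups. Whether they set MEP apart from later erythroid cells was not tested. Summed over 8 MEP markers (Kit, Gata1, Klf1, Epor, Gfi1b, Zfpm1, Tfrc and Car1), the level was 190550 to 337590 in crisis and 181400 to 214840 in young WT. Tfrc was the largest part of the sum in every library. Tfrc (log2 0.72) and Car1 (log2 0.53) differed most, the rest lay between -0.33 and 0.05, and none passed. Markers that an MEP gate leaves out (Cd34, Fcgr3, Fcgr2b, Ly6a, Flt3 and Il7r) summed to 263 to 338 in crisis, against 421, 490 and 3054 in young WT. Young WT 3 stood apart from the other libraries. The 3 B cell markers (Cd79a, Cd79b, Ms4a1) summed to 35.3 to 129 in crisis, against 80.2, 291 and 2294 in young WT 1, 2 and 3. The 4 neutrophil markers (S100a8, S100a9, Ltf, Ngp) summed to 359 to 897 in crisis, against 170, 159 and 1408 in young WT 1, 2 and 3. The 4 T and NK cell markers (Cd3e, Cd3d, Cd3g, Nkg7) summed to 15.8 to 31.0 in crisis and 91.7 to 138 in young WT, with Cd3e at 0 in crisis 3. Megakaryocyte markers (Pf4, Itga2b, Gp9, Ppbp) summed to 175 to 233 in crisis and 428 to 652 in young WT, and Pf4 and Ppbp lay between 0 and 3.63 in every library except young WT 3, where Pf4 reached 61.5. Mast cell and basophil markers (Cpa3, Ms4a2, Mcpt8, Prss34) summed to 14.4 to 27.7 in crisis and 46.9 to 146 in young WT. Macrophage markers (Adgre1, C1qa, C1qb, Cd163) summed to 193 to 436 in crisis and 222 to 276 in young WT, nearly all of it Cd163, with Adgre1 and C1qa at 0 in crisis 3. Late erythroblast transcripts (Hba-a1, Hbb-bs, Slc4a1) summed to 187710 to 365270 in crisis and 178690 to 240340 in young WT. The groups did not overlap for the gate, T and NK, mast cell and megakaryocyte sums, for which the exact permutation test gave p = 0.1, the smallest that 3 against 3 allows. Mitochondrial transcripts took 2.69 to 3.58% in crisis and 3.23 to 3.86% in young WT, and genes above 0 numbered 16413 to 16956 in crisis and 17264 to 17792 in young WT. The first principal component, with 50.6% of the variance, placed the crisis libraries at -38.4, -45.7 and -58.1 and the young WT libraries at 18.1, 39.4 and 84.7. The part that other cells, the column construction and young WT 3 have in the differences below was not tested beyond the values without single libraries given with them.

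**Figure D1:**
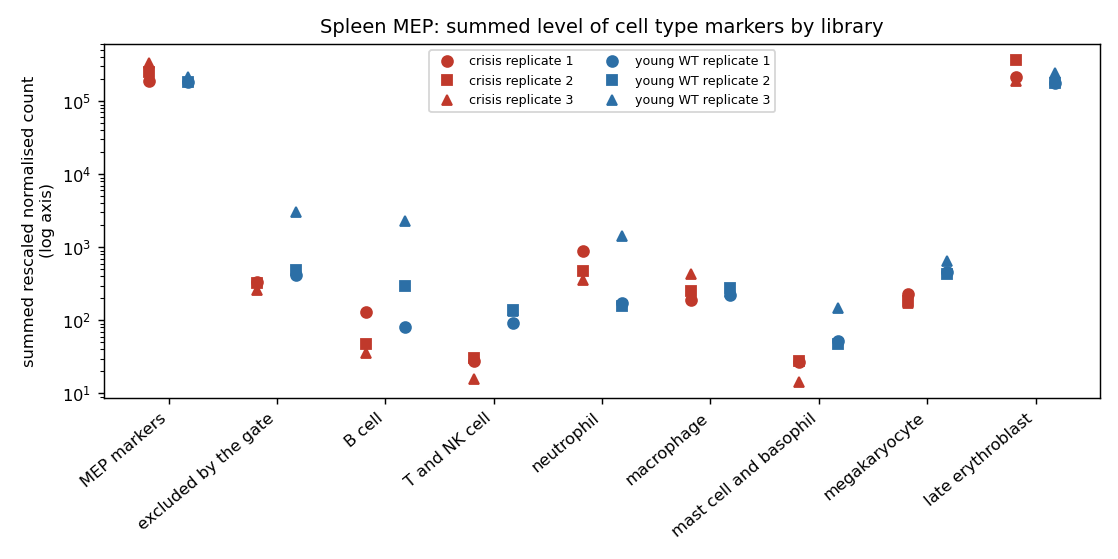
Summed normalised counts (log10 axis) of 9 marker lists in each library, crisis libraries in red on the left of each pair and young WT in blue on the right. The lowest MEP sum is 181400 and the lowest late erythroblast sum 178690, both in young WT, and young WT 3 is the highest library for the markers an MEP gate leaves out, for B cells and for neutrophils.

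Of 13542 genes tested, 159 passed, which is 1.17%, with 78 higher in crisis MEP (0.576%) and 81 lower (0.598%). By at least 2-fold, 51 were higher and 66 lower. The median log2 difference of the 78 was 1.32 and that of the 81 was -2.13, and the median of all genes tested was -0.0057. Levels of the 3 crisis libraries lay wholly above or below those of the 3 young WT libraries in 28.5% of all genes tested (14.1% higher in crisis, 14.4% lower), and in each of the 159. How many genes passed depended on each library: 900 passed without crisis 1, 23 without crisis 2, 16 without crisis 3, 9 without young WT 1, 8 without young WT 2 and 71 without young WT 3. In those 6 fits all 159 genes kept their direction. Their groups did not overlap, so leaving out 1 library could hardly turn it, and this is no separate support. There were 7 genes that passed in all 6, namely Mt2, Hif3a, Tjp1 and the processed pseudogene Gm10233 among those higher in crisis, and Ifitm1, Fn3k and Fam117a among those lower. Crisis 1 was the lowest crisis library in 54 of the 78 genes that rose, and young WT 3 the highest library in 47 of the 81 that fell. Among all genes whose groups did not overlap, the same held for 54.8% of those higher in crisis and 53.4% of those lower. Without young WT 3 the medians of those same genes were 1.42 and -1.86. In sorted pools, fewer cells of a type and less RNA per cell cannot be told apart. The genes named by rule are given with the processing, and other genes named below were chosen after their values were seen.

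**Figure D2:**
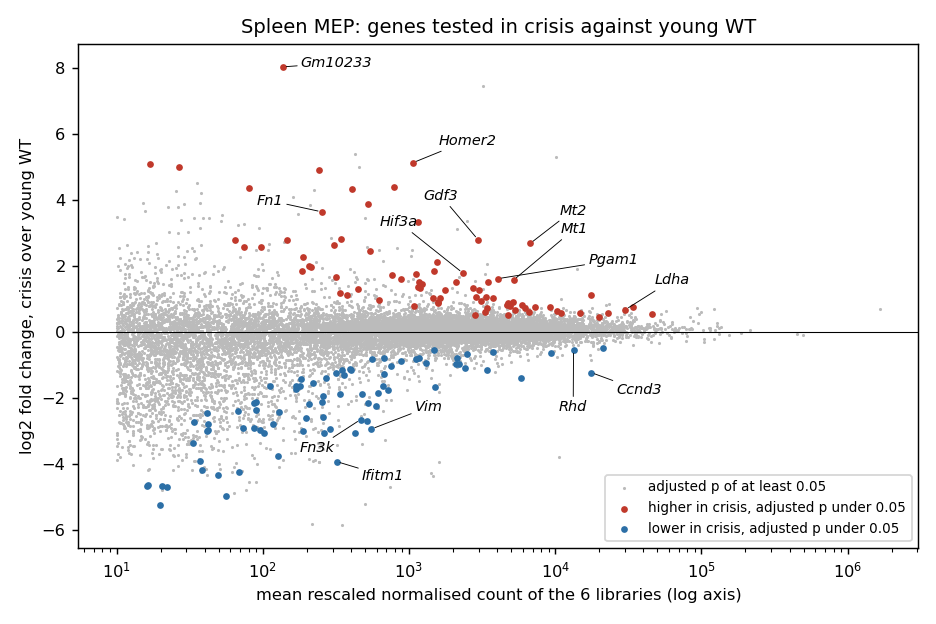
Each point is 1 of the 13542 genes tested, with its mean level over the 6 libraries on the x axis (log10) and the log2 difference, crisis minus young WT, on the y axis. The 159 genes that passed are coloured, 78 above and 81 below 0. Homer2 lies near the top at 5.12, Mt2 at 2.67 and Ifitm1 at -3.94.

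Transcript levels of the mutated gene overlapped between the groups. Rasa3 (chr8:13566948-13677603, minus strand, GRCm38) had 1309, 1554 and 1367 normalised counts in crisis and 1046, 1258 and 1949 in young WT. The crisis values lay within the young WT range, and the difference did not pass (log2 0.04, SE 0.215, adjusted p = 0.934). Its sign turned in 7 alternatives, to -0.05 with columns scaled to the same total and to -0.15 without young WT 1. These levels bear on the amount of transcript and not on the allele. Among 24 Ras and Rap regulators, 0 rose and 1 fell (0.576% and 0.598% of all genes tested did), with a median of -0.14. Higher in every crisis library were 2 of the 24 and lower 3, near the 14.1% and 14.4% of all genes. The member that fell was Rasgrp1, an exchange factor that activates Ras downstream of diacylglycerol. Rasgrp1 had 8.05, 12.6 and 6.05 counts in crisis and 58.6, 79.7 and 89.3 in young WT (log2 -2.99, SE 0.466, adjusted p = 0.0358), and passed in 1 of the 6 fits that leave out a library. Rasgrp2, which activates Rap1 in platelets, had 52.8, 46.4 and 42.1 in crisis and 126, 218 and 1493 in young WT, apart in every library but not past the threshold (log2 -2.85, adjusted p = 0.0992). The Rap1-inactivating protein Sipa1 had 4693, 4053 and 3127 in crisis and 5496, 5522 and 5903 in young WT (log2 -0.53, adjusted p = 0.0992). Other members lay the other way without passing. The Ras-inactivating proteins Rasal2 and Rasa2 were higher in every crisis library, Rasal2 at 481, 528 and 688 in crisis and 325, 408 and 269.7 in young WT (log2 0.76, adjusted p = 0.106) and Rasa2 with a smaller difference (log2 0.44, adjusted p = 0.199). Rap1gap2, which inactivates Rap1, overlapped, at 132, 159 and 588 in crisis and 71.3, 163 and 51.6 in young WT (log2 1.44, adjusted p = 0.217). Of 10 Ras and Rap GTPases tested, 0 passed and the median was 0.22. Nras (log2 0.23) and Rap2c (log2 0.34) were the members whose libraries did not overlap, against 28.5% of all genes tested.

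Among the genes that ERK signalling induces to restrain itself, 1 of 14 passed (1.17% of all genes tested did). Higher in every crisis library were 2 of the 14 and lower 3, against 14.1% and 14.4% of all genes. Spry1, a Sprouty protein that dampens receptor tyrosine kinase signalling, had 257, 729 and 601 counts in crisis and 58.6, 69.8 and 112 in young WT. Every crisis library exceeded every young WT library, crisis 1 by the least, and the difference was 6.20-fold (log2 2.63, SE 0.421, adjusted p = 0.0369; passed in 2 of 6 leave-one-out fits). The list's median was -0.04, with Dusp4, a phosphatase that removes phosphate from ERK, at 5.42, 9.27 and 3.51 in crisis and 10.2, 17.9 and 49.2 in young WT (log2 -1.72, adjusted p = 0.221). Ier3, an early response gene, had 151, 239.6 and 197 in crisis and 56.1, 64.8 and 125 in young WT (log2 1.31, adjusted p = 0.0999), again apart in every library.

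Metallothioneins, small cysteine-rich proteins that bind zinc and copper, rose together. Mt2 (chr8:94172664-94173568, plus strand) had 8469, 10606 and 16002 counts in crisis MEP and 1990, 2055 and 1356 in young WT, a 6.37-fold difference (log2 2.67, SE 0.242, adjusted p = 0.0076). The lowest crisis library stood far above the highest young WT library, and Mt2 passed in 6 of the 6 fits that leave out a library (adjusted p 0.00443 to 0.0493). Mt1 (chr8:94179082-94180327, plus strand) had 6074, 6826 and 10528 counts in crisis and 2681, 2836 and 2225 in young WT (log2 1.56, SE 0.199, adjusted p = 0.021), also without overlap, and passed in 3 of 6 (adjusted p 0.00995 to 0.103). The other 8 members of the list, zinc transporters and the metal-sensing factor Mtf1, did not pass, and the median of the 10 was -0.03. The share that rose among all genes tested was 0.576%. Mtf1, which drives metallothionein transcription when zinc is bound, had 2922, 3312 and 2543 in crisis and 2959, 2769.6 and 2988 in young WT (log2 0.0023). Slc30a1, the zinc exporter of the plasma membrane and another target of that factor, had 1342, 1481 and 1059 in crisis and 956, 1032 and 1058 in young WT (log2 0.34, adjusted p = 0.222), without overlap. The promoters of the pair are shown because Mt1 and Mt2 lie next to each other and moved together. Capitals mark the metal response core, TGCACNC or TGCGCNC on either strand, in RefSeq windows of 300 bases (GRCm38.p6, 250 bases before the start and 50 after it).
Mt2 (chr8:94172368-94172667, plus strand): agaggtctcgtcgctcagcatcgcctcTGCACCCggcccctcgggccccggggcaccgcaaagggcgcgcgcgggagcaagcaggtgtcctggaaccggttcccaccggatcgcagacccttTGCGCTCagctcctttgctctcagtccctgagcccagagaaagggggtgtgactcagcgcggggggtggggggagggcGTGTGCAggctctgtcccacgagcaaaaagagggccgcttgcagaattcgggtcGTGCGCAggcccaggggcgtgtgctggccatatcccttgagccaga
Mt1 (chr8:94178839-94179138, plus strand): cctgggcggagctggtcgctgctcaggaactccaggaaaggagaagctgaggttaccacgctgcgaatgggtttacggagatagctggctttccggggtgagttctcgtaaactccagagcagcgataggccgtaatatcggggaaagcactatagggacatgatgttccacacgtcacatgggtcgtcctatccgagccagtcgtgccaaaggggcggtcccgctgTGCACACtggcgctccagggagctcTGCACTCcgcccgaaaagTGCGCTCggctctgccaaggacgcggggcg
The Mt2 window holds 4 matches and the Mt1 window 3. Among 32851 mouse promoter windows of the same length, 0.517% hold at least 4 and 1.97% at least 3.

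In the hypoxia list 1 of 20 members tested rose (0.576% of all genes tested did) and 0 fell, with a median of 0.10. Higher in every crisis library were 5 of the 20 and lower 0, against 14.1% and 14.4% of all genes. Hif3a (chr7:17031507-17062427, minus strand), a hypoxia-inducible factor subunit that is itself induced in low oxygen and in some forms restrains the other subunits, had 3920, 2722 and 4227 counts in crisis and 1031, 1026 and 1059 in young WT. The young WT values were nearly equal and all crisis values lay far above them, averaging 3623 ± 795 in crisis against 1038 ± 18.1 in young WT (SD, n = 3 each; log2 1.78, SE 0.163, adjusted p = 0.0076). Hif3a passed in 6 of the 6 leave-one-out fits. The other subunits overlapped between the groups. Hif1a had 1513, 1944 and 1554 in crisis and 1575, 1612 and 1458 in young WT (log2 0.10, adjusted p = 0.677), and Epas1 had 1.37, 37.9 and 4.92 in crisis and 16.5, 31.9 and 18.5 in young WT. Vegfa, the vascular growth factor and a classical target of the pathway, had 648, 961 and 722 in crisis and 297, 265 and 563 in young WT, apart in every library but not past the threshold (log2 1.11, adjusted p = 0.096). Egln1, the oxygen sensor that marks the factors for degradation, had 3436, 3509 and 3671 in crisis and 2939, 2817 and 2731 in young WT (log2 0.32, adjusted p = 0.0992), and Pdk1, which diverts pyruvate from the mitochondrion, had 6119, 6064 and 8989 in crisis and 5520, 5445 and 4234 in young WT (log2 0.46, adjusted p = 0.176). The glucose carrier Slc2a1 (log2 0.0048, adjusted p = 0.997) and the oxygen-regulated carbonic anhydrase Car9 (log2 -0.88, adjusted p = 0.591) overlapped between the groups. Ndrg1 varied within the crisis group, at 283, 68.6 and 1259.9 in crisis against 17.8, 33.9 and 105 in young WT (log2 2.83, adjusted p = 0.157).

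Glycolysis held more genes that passed than any of the other lists. Of 22 genes for glycolysis, lactate and the pentose phosphate route, 7 rose (0.576% of all genes tested did) and 0 fell. Higher in every crisis library than in any young WT library were 12 of the 22, against 14.1% of all genes. The list median was 0.45 against -0.0057 over all genes. Those that rose cover the upper and lower parts of the pathway and its exit. Hk1, the hexokinase that commits glucose, had 35196, 50823 and 43480 counts in crisis and 25729, 24546 and 25717 in young WT (log2 0.75, SE 0.13, adjusted p = 0.0413). Pfkp, the platelet-type phosphofructokinase, had 762, 885 and 801 in crisis and 398, 403 and 472 in young WT (log2 0.94, SE 0.149, adjusted p = 0.0358). Aldoa, the aldolase, had 19627, 16352 and 16705 in crisis and 12618, 11963 and 10974 in young WT (log2 0.56, SE 0.103, adjusted p = 0.0455). In each of these the lowest crisis library was above the highest young WT library.

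Further down the pathway, Pgam1, phosphoglycerate mutase, had 4374, 5476 and 8510.5 counts in crisis and 1680, 1635 and 2646 in young WT (log2 1.60, SE 0.263, adjusted p = 0.0395). Crisis 3 was the highest and young WT 3 the highest of its own group. Eno1, enolase, had 11859, 10800 and 12108 in crisis and 6675, 6559.7 and 7384 in young WT (log2 0.75, SE 0.0926, adjusted p = 0.0209), and its near-identical copy Eno1b, with which it may share reads, moved alike (log2 0.74, adjusted p = 0.0244). Ldha, the lactate dehydrogenase subunit that turns pyruvate to lactate, had 35728, 37213 and 38129 in crisis and 24349, 22388 and 23343 in young WT, each group spread over a narrow range (log2 0.66, SE 0.0791, adjusted p = 0.0208). Slc16a3, a monocarboxylate carrier that lets lactate out of glycolytic cells, had 530.4, 379.8 and 513 in crisis and 132, 106 and 227 in young WT, a 3.18-fold difference (log2 1.67, SE 0.304, adjusted p = 0.0455).

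Tpi1, Gapdh and Pgk1, the enzymes between aldolase and the mutase, had libraries that did not overlap and differences of 0.47, 0.45 and 0.44 that did not pass (adjusted p = 0.0684, 0.0722 and 0.0617). Bpgm, which makes the 2,3-bisphosphoglycerate that loosens oxygen from hemoglobin, had 1978, 2368 and 2043 in crisis and 1836, 1717 and 1871 in young WT (log2 0.23, adjusted p = 0.248). Members that did not follow were Pfkl (log2 -0.08, adjusted p = 0.776), Pfkm (log2 -0.05, adjusted p = 0.825) and the red cell pyruvate kinase Pklr (log2 0.20, adjusted p = 0.472), whose groups overlapped, and Slc16a1, the other monocarboxylate carrier, with 20779, 23587 and 16425 in crisis and 20761, 19775 and 20827 in young WT (log2 -0.03). Aldoc, the brain-type aldolase, was low and the member that was lower in every crisis library, at 18.8, 19.5 and 19.1 in crisis and 25.5, 27.9 and 34.9 in young WT (log2 -0.58, adjusted p = 0.457). Ldhb, the other main lactate dehydrogenase subunit, had the lowest difference of the list and overlapped, at 5.35, 8.06 and 48.9 in crisis and 25.4, 34.9 and 64.7 in young WT (log2 -1.48, adjusted p = 0.318). Pkm, the pyruvate kinase of most other cells, had 1203, 1061 and 1676 in crisis and 433, 513 and 2362 in young WT, where young WT 3 was the highest of all (log2 0.67, adjusted p = 0.519). The count of the list rested on single libraries: 8 members passed without crisis 1, 1 without crisis 2, 0 without crisis 3, 0 without young WT 1, 0 without young WT 2 and 5 without young WT 3. Its median stayed between 0.36 and 0.48 in those fits.

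**Figure D3:**
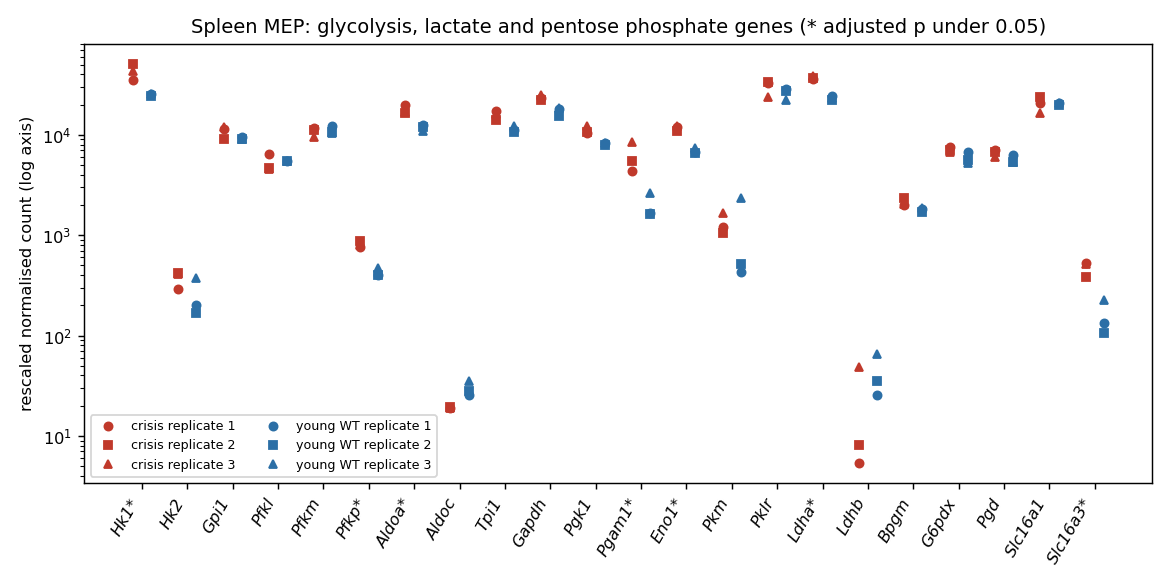
Normalised counts (log10 axis) of the 22 genes for glycolysis, lactate and the pentose phosphate route in each library, with crisis in red on the left and young WT in blue on the right of each gene, and an asterisk on the 7 genes with an adjusted p under 0.05. For Ldha the crisis libraries sit between 35728 and 38129 and the young WT libraries between 22388 and 24349.

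The promoters of Ldha, Pgam1 and Slc16a3 are shown because these genes rose together and the hypoxia response core is a known feature of the Ldha promoter. Capitals mark that core, ACGTG or GCGTG on either strand, in the same kind of RefSeq window (GRCm38.p6). A palindromic CACGTG counts as 2 overlapping matches.
Ldha (chr7:46845554-46845853, plus strand): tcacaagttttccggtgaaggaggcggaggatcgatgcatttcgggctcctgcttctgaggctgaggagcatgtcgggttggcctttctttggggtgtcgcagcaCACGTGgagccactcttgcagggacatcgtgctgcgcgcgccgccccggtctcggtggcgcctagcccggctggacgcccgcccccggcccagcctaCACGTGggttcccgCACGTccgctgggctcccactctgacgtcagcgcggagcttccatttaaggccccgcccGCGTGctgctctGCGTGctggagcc
Pgam1 (chr19:41911621-41911920, plus strand): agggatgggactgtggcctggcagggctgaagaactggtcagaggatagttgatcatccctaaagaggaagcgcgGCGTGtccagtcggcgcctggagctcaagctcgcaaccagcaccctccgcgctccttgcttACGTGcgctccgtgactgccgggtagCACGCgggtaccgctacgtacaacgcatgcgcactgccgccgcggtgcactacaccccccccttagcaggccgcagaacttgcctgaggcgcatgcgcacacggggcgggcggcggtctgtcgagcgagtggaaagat
Slc16a3 (chr11:120948817-120949116, plus strand): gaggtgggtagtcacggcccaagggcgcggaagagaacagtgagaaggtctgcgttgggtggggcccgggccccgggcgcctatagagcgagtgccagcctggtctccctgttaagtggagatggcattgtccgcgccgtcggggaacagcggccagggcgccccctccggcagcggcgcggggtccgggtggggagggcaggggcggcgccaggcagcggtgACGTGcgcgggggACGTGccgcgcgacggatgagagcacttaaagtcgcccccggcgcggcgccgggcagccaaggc
These windows hold 7, 3 and 2 matches, and 0.301%, 8.93% and 20.6% of the 32851 mouse windows hold at least as many. A second Ldha start, in a window further along the gene (chr7:46846832-46847131), has 2 matches. Of the other genes that rose in the list, windows at Pfkp held 4, Hk1 0 and 5, Eno1 2 at each of 3 starts, and Aldoa 0, 1 and 1. The window at Hif3a held 2. At least 1 match is in 43.8% of all windows.

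Homer2, a scaffold protein known from the synapse that links receptors to calcium stores, had the largest rise that passed among genes above 0 in all 6 libraries. It had 552, 3088 and 2585 counts in crisis and 31.8, 107 and 28.9 in young WT, a 34.7-fold difference (log2 5.12, SE 0.704, adjusted p = 0.0275). Crisis 1 lay well under crisis 2 and 3 but above every young WT library, and Homer2 passed in 1 of the 6 leave-one-out fits (adjusted p 0.00622 to 0.0992). Of the 3 Homer genes, 1 rose (0.576% of all genes tested did) and 0 fell, with a median of 0.78. Homer1 had 1430.4, 1740.1 and 1827 in crisis and 1128, 1018 and 789.6 in young WT (log2 0.78, adjusted p = 0.0663). Homer3 ran the other way, at 272, 121 and 186 in crisis and 408, 418 and 617 in young WT (log2 -1.36, adjusted p = 0.0767), again with no overlap.

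Other genes with the largest differences were low or absent in young WT MEP. Gm10233, a processed pseudogene whose reads may come from its parent gene, had 163, 281 and 377 counts in crisis and was listed at 0 in all young WT libraries (adjusted p = 0.00439, passed in 6 of 6). Gvin1 (a very large interferon-inducible GTPase of the mouse) had 38.1, 23.4 and 40.3 in crisis and was also listed at 0 in young WT (adjusted p = 0.0358). Tcf23, a helix-loop-helix factor, had 18.9, 78.2 and 61.3 in crisis and 0, 1.99 and 0 in young WT (log2 5.00, SE 0.863, adjusted p = 0.0413). Cda, cytidine deaminase, had 276, 157 and 34.4 in crisis and 6.36, 2.99 and 5.28 in young WT (log2 4.35, SE 0.761, adjusted p = 0.0419), with crisis 3 far under the other crisis libraries. The transcript of the T cell receptor gamma constant region Tcrg-C1 had 653, 2505 and 1326 in crisis and 38.3, 29.9 and 193 in young WT (log2 4.39, SE 0.714, adjusted p = 0.0387), while the T and NK cell markers summed to less in crisis than in young WT.

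Fibronectin, Fn1, the matrix protein that erythroid progenitors bind through integrins, had 217, 407 and 772 counts in crisis and 17.8, 23.9 and 76.4 in young WT (log2 3.63, SE 0.613, adjusted p = 0.0408). Pkd1l3, a polycystin-type membrane protein, had 267, 1308 and 1416 in crisis and 38.2, 50.8 and 76.7 in young WT (log2 3.87, SE 0.607, adjusted p = 0.0358). B3gnt7, a glycosyltransferase, had 306, 1072 and 931 in crisis and 11.5, 29.9 and 99.2 in young WT (log2 4.32, SE 0.751, adjusted p = 0.0413), and the uncharacterised 0610040J01Rik had 145, 483 and 791 in crisis and 6.36, 23.9 and 10.8 in young WT (log2 4.89, SE 0.675, adjusted p = 0.0275). In all 4 the groups were apart, and crisis 1 was the lowest crisis library. Tjp1 (chr7:65296165-65527781, minus strand), the tight junction protein ZO-1, was more even within groups. Its level was 2097, 2535 and 2312 in crisis and 516, 712 and 714 in young WT (log2 1.85, SE 0.157, adjusted p = 0.0076), and it passed in 6 of 6 fits.

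Of 18 genes of the erythropoietin and STAT5 response, 0 passed and the list median was 0.74. In every crisis library 6 were higher (14.1% of all genes tested were) and 2 lower (14.4% of all genes). Erfe, the erythroid hormone that lowers hepcidin, had 1276, 6963 and 3374 in crisis and 317, 201 and 733 in young WT, with crisis 2 the highest (log2 3.10, SE 0.645, adjusted p = 0.0678). Osm, oncostatin M, had 729, 2755 and 837 in crisis and 185, 126 and 361 in young WT (log2 2.54, SE 0.538, adjusted p = 0.0663). Podxl, a sialomucin of the cell surface, had 12250, 28349 and 16439 in crisis and 406, 81.7 and 2892 in young WT (log2 5.28, SE 1.28, adjusted p = 0.102). In each of these the lowest crisis library was above the highest young WT library, and young WT 3 was the highest of its group.

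The feedback inhibitors of that pathway spread widely. Socs3 had 44.5, 233 and 88.7 in crisis and 5.08, 4.99 and 30.0 in young WT (log2 3.24, SE 0.815, adjusted p = 0.0892). Cish had 710.3, 10087 and 2930.3 in crisis and 145, 169 and 814 in young WT (log2 3.34, SE 1.12, adjusted p = 0.168), where crisis 1 was below young WT 3. The survival kinase Pim1 had 2066, 7192 and 3575 in crisis and 1074, 1056 and 1880 in young WT (log2 1.55, adjusted p = 0.0983). The receptor Epor had 10119, 8102 and 8843 in crisis and 9144, 8767 and 8208 in young WT (log2 0.05, adjusted p = 0.831), and its kinase Jak2 had 5145, 3644 and 5206 in crisis and 6674, 7086 and 5558 in young WT (log2 -0.48, adjusted p = 0.139). Leaving out 1 library gave between 0 and 5 members that passed as higher and between 0 and 2 as lower.

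In the lists of the red cell programme, from heme synthesis to cellular iron, Rhd was the only member that passed. Of all genes tested, 1.17% did. Of 17 genes for heme synthesis and mitochondrial iron supply, 0 passed, 2 were higher and 7 lower in every crisis library (14.1% and 14.4% of all genes tested were), and the median was -0.11. Uros, the enzyme that closes the porphyrin ring, had 4785, 3529 and 2380.3 in crisis and 6741, 5992 and 6681 in young WT (log2 -0.92, SE 0.22, adjusted p = 0.0801). Cpox, which acts after it, had 35645, 41762 and 34957 in crisis and 25381, 25449 and 28783 in young WT (log2 0.49, SE 0.101, adjusted p = 0.0617). Neither overlapped between the groups, and they lay in opposite directions. Alas2, the rate-limiting enzyme in red cells, had 4897, 8811 and 5476 in crisis and 3349, 3757 and 5199.5 in young WT (log2 0.62, adjusted p = 0.182), and young WT 3 fell within the crisis range.

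Of 5 globin genes tested, 0 passed and the median was 0.61. The adult genes, whose near-identical copies can share reads, gave 0.24 for Hba-a1, 0.72 for Hba-a2, 0.61 for Hbb-bs and 0.98 for Hbb-bt (adjusted p = 0.606, 0.184, 0.2 and 0.121), and adult globins took 0.426 to 0.778% of a crisis library and 0.364 to 0.545% of a young WT library. The embryonic Hba-x had 8.09, 0 and 0 in crisis and 31.8, 22.9 and 10.3 in young WT (log2 -3.31, adjusted p = 0.132).

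In the red cell membrane and surface list, 1 of 26 fell, 0 rose, and the median was -0.15. Rhd, which carries the Rh blood group antigen, had 12119, 9759 and 10685 in crisis and 15435, 15920 and 16117 in young WT (log2 -0.55, SE 0.0991, adjusted p = 0.0447; passed in 1 of 6). Its partner Rhag had 18350, 23462 and 33793 in crisis and 17060, 15449 and 17733 in young WT (log2 0.55, adjusted p = 0.16), with every crisis library above the young WT libraries. Epb42, protein 4.2 of the membrane skeleton, had 1970.2, 3432 and 1566 in crisis and 4203, 4148 and 3885 in young WT (log2 -0.89, adjusted p = 0.101), lower in every crisis library.

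Among 16 erythroid transcription factors, 0 passed and the median was -0.13. Gata1, the factor that defines the lineage, had 14624, 12304 and 9893 in crisis and 13480, 13186 and 12530 in young WT (log2 -0.11, adjusted p = 0.685), and Klf1 had 19868, 16597 and 12099 in crisis and 19560, 19066 and 21221 in young WT (log2 -0.33, adjusted p = 0.28). Cbfa2t3, the corepressor ETO2 of the same complex, had 2134, 1102 and 941 in crisis and 2682, 2456 and 2649 in young WT, lower in every crisis library (log2 -0.99, adjusted p = 0.0986). Bcl11a, the repressor of fetal-type globin, gave 12198, 11627 and 11567 in crisis and 11345, 11051 and 9928 in young WT (log2 0.13, adjusted p = 0.406). Of 15 genes for cellular iron, 0 passed and the median was 0.00087. The transferrin receptor Tfrc had 85765, 114170 and 140890 in crisis and 61285, 48077 and 104670 in young WT (log2 0.72, adjusted p = 0.185), Pcbp2 gave a log2 of 0.14 and Hmox1, heme oxygenase, one of -0.33, which turned to 0.17 with quantile normalisation. Of 10 receptors and mediators of stress erythropoiesis tested, 0 passed and the median was -0.07. Smad1, which carries bone morphogenetic protein signals, had 9.34, 9.30 and 44.0 in crisis and 63.7, 73.8 and 122 in young WT (log2 -2.32, adjusted p = 0.0992), and the activin receptor Acvr2a had 203, 262 and 387 in crisis and 131, 155 and 157 in young WT (log2 0.89, adjusted p = 0.121).

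In the lists for replication, mitosis, p53, the BCL2 family, oxidative stress and the integrated stress response, Gsr was the only member that passed. Of all genes tested, 1.17% did. Of 20 DNA replication genes and 20 mitosis genes, 0 passed in either list, with medians of -0.14 for each. Cdc6 and Gins2, which load and build the replicative helicase, gave -0.40 and -0.35, and Cenpf and Nusap1, proteins of the mitotic spindle, gave -0.46 and -0.43 (adjusted p = 0.155, 0.121, 0.0727 and 0.151). Each of these 4 was lower in every crisis library. Outside these lists, the G1 cyclin Ccnd3, which governs how many divisions an erythroblast makes, did fall, and by more. It had 10090, 12657 and 8828 counts in crisis and 23282, 24268 and 26447 in young WT (log2 -1.24, SE 0.134, adjusted p = 0.0147), and it passed in 4 of the 6 leave-one-out fits.

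Of 17 p53 targets tested, 0 passed and the median was 0.48. Crisis 3 was the highest library for several: Cdkn1a, the cell cycle inhibitor p21, had 92.9, 366 and 834 in crisis and 40.7, 69.8 and 311 in young WT (log2 1.66, adjusted p = 0.314), and Zmat3 had 530.5, 1332 and 3177 in crisis and 431, 378 and 505 in young WT (log2 1.59, adjusted p = 0.142). Btg2, another target, had 802, 1296 and 1009.5 in crisis and 1397, 1319.7 and 1968 in young WT (log2 -0.60, adjusted p = 0.156), lower in every crisis library. Of 11 BCL2 family genes, 0 passed and the median was -0.16. Bcl2l11, the death-promoting protein BIM, had 3927, 1998 and 2608 in crisis and 5289.6, 5283 and 4100.2 in young WT (log2 -0.83, adjusted p = 0.0999), and the survival protein Mcl1 gave a log2 of 0.10.

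Of 18 genes for oxidative stress defence, 1 rose, 0 fell, and the median was -0.0094. Gsr, which regenerates reduced glutathione, had 3982, 5011 and 3791 in crisis and 2769.6, 2648 and 2359 in young WT (log2 0.71, SE 0.128, adjusted p = 0.0449; passed in 1 of 6). Catalase, Cat, had 4568, 4955 and 10448 in crisis and 3447, 3949 and 4280.2 in young WT (log2 0.67, adjusted p = 0.21), with crisis 3 far above the rest. Of 17 genes of the integrated stress and unfolded protein responses, 0 passed and the median was 0.34. The serine and folate enzymes of that list came nearest: Shmt2 had 17304, 20806 and 17161 in crisis and 12404, 11350 and 13345 in young WT (log2 0.57, SE 0.108, adjusted p = 0.0505), Psat1 had 7582, 8268 and 6755 in crisis and 4925, 3976 and 5346 in young WT (log2 0.67, SE 0.132, adjusted p = 0.057), and Mthfd2 had 4718, 9044 and 3825 in crisis and 3271, 2512 and 3652 in young WT (log2 0.81, adjusted p = 0.16).

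In the interferon list, 1 of 13 tested rose (0.576% of all genes tested did) and 0 fell, with a median of -0.0085. Rsad2, the antiviral protein viperin, had 1708, 2070.4 and 1415 in crisis and 438, 486 and 631 in young WT, with no overlap (log2 1.74, SE 0.19, adjusted p = 0.0147; passed in 3 of 6). No other member passed. At an unadjusted limma p under 0.05, 2 members were higher, Rsad2 among them, and 2 were lower. Over all 13542 genes tested, 3032 had such a p in either direction. Stat2, which carries interferon signals to the nucleus, had 1649, 778 and 883 in crisis and 1837, 1994 and 1891 in young WT (log2 -0.87, adjusted p = 0.108), and Oas1a had 472, 237 and 86.7 in crisis and 332, 347 and 536 in young WT (log2 -0.89, adjusted p = 0.363). Of 8 inflammatory and NF-kB genes tested, 0 passed and the median was -0.29. Icam1 had 8.25, 14.7 and 28.0 in crisis and 38.7, 47.3 and 97.9 in young WT (log2 -1.83, adjusted p = 0.126), and Nfkb2 had 893, 553 and 487 in crisis and 924, 911 and 897 in young WT (log2 -0.55, adjusted p = 0.194).

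Among genes of stem and early progenitor cells, 3 of 24 tested fell (0.598% of all genes tested did), 0 rose, and the median was -1.20. Lower in every crisis library were 13 of the 24, against 14.4% of all genes. Ifitm1 (chr7:140967221-140969825, plus strand), an interferon-inducible membrane protein carried by early progenitors, had 29.7, 61.0 and 27.8 counts in crisis and 489.6, 491 and 819 in young WT (log2 -3.94, SE 0.37, adjusted p = 0.0076). No library overlapped, and it passed in 6 of 6 leave-one-out fits, at -3.69 without young WT 3. Angpt1, the TIE2 ligand that stem cells and early progenitors make, had 64.6, 63.3 and 80.4 in crisis and 218, 293 and 519 in young WT (log2 -2.20, SE 0.343, adjusted p = 0.0358). Mycn, a MYC family factor of early progenitors, had 12.2, 15.1 and 8.61 in crisis and 53.4, 62.8 and 97.8 in young WT (log2 -2.46, SE 0.454, adjusted p = 0.0466). Angpt1 and Mycn each passed in 1 of the 6 fits, the one without crisis 1.

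Other early regulators had separate groups and did not pass. Erg had 18.7, 7.01 and 13.8 in crisis and 54.7, 113 and 792 in young WT (log2 -3.69, adjusted p = 0.0818), Meis1 had 36.3, 44.9 and 20.6 in crisis and 122, 129 and 350.4 in young WT (log2 -2.41, adjusted p = 0.0617), and Gata2, which precedes Gata1 in the lineage, had 119, 215 and 279.6 in crisis and 368, 456 and 880.1 in young WT (log2 -1.45, adjusted p = 0.0992). Young WT 3 was the highest library for each, and without it the median of the 23 members tested was -0.43. Higher in every crisis library were 3 of the 24, against 14.1% of all genes, namely Hoxa9 at 648, 684 and 693 in crisis and 514, 455 and 616 in young WT (log2 0.36, adjusted p = 0.223), Cd48 at 1142, 1647 and 1101 in crisis and 644, 749 and 1014 in young WT (log2 0.69, adjusted p = 0.12) and Mllt3, a chromatin reader, with a log2 of 0.33. The highest difference of the list was that of Cdkn1c, the cell cycle inhibitor p57, whose crisis libraries spread widely and overlapped young WT, at 5.38, 40.9 and 219 in crisis and 8.89, 5.98 and 17.2 in young WT (log2 1.85, adjusted p = 0.373).

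The genes with the strongest falls were near 0 in crisis MEP, and the sizes of such differences depend on the processing. Over the alternatives the log2 of Dsp ranged from -5.235 to -2.156, that of Pdzph1 from -5.025 to -2.018 and that of Mypn from -5.008 to -2.006. Nynrin had 0, 4.60 and 2.34 in crisis and 38.9, 64.6 and 223 in young WT (log2 -4.98, SE 0.886, adjusted p = 0.0433), Afap1l1, an actin-associated protein, had 5.58, 2.30 and 8.34 in crisis and 82.7, 69.8 and 245 in young WT (log2 -4.27, SE 0.644, adjusted p = 0.0358), and Mdga1, a membrane-anchored adhesion protein, had 1.32, 3.54 and 3.55 in crisis and 39.4, 48.8 and 199 in young WT (log2 -4.35, SE 0.739, adjusted p = 0.0408). Young WT 3 was the highest library in these 3. In Dsp, desmoplakin of cell junctions, the levels were 0, 2.27 and 0 in crisis and 36.8, 62.4 and 22.1 in young WT (log2 -4.68, SE 0.837, adjusted p = 0.0433), and in Mypn, a sarcomere protein of muscle, they were 0, 1.18 and 0 in crisis and 35.6, 37.9 and 23.2 in young WT (log2 -4.65, SE 0.781, adjusted p = 0.0408). Pdzph1 had 0, 1.12 and 0 in crisis and 30.5, 36.9 and 28.9 in young WT (log2 -4.68, SE 0.766, adjusted p = 0.0395), Tceal3 1.35, 3.35 and 3.81 in crisis and 66.2, 119 and 36.4 in young WT (log2 -4.19, SE 0.645, adjusted p = 0.0358). In these 4, young WT 3 was the lowest young WT library. Gm16568, annotated as an antisense transcript, was listed at 0 in all crisis libraries and had 24.2, 34.7 and 60.8 in young WT (adjusted p = 0.0358). Whether counting used strand is not given in the sources used here, so reads of its partner gene cannot be told apart. The immunoglobulin segment Igkv14-126 had 0, 3.38 and 0 in crisis and 58.6, 29.9 and 40.9 in young WT (log2 -4.70, SE 0.837, adjusted p = 0.0433).

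Fn3k and Fam117a fell from well-measured levels. Fn3k (chr11:121434913-121450491, plus strand), which removes sugar adducts from lysines of proteins and is known from red cells, had 162, 97.7 and 126 counts in crisis and 845, 795 and 775 in young WT, far apart (log2 -2.67, SE 0.22, adjusted p = 0.0076). Its neighbour on chromosome 11, the related kinase Fn3krp (chr11:121421401-121431288, plus strand), had 1706, 1191 and 1565 in crisis and 2956, 2952 and 2819.5 in young WT (log2 -0.98, SE 0.141, adjusted p = 0.0298). Fam117a (chr11:95337018-95381872, plus strand) had 3907, 2877 and 2875 in crisis and 8099, 8293 and 8979.7 in young WT (log2 -1.41, SE 0.133, adjusted p = 0.0076). Fn3k and Fam117a passed in all 6 leave-one-out fits and Fn3krp in 2.

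Megakaryocyte and platelet genes were low in these libraries, and 9 of the 25 listed averaged under 10 counts. Of 16 tested, 0 passed, and 5 were lower and 1 higher in every crisis library (14.4% and 14.1% of all genes tested were). The median was -0.94, or -0.30 over the 14 tested without young WT 3. Gp9, a subunit of the von Willebrand factor receptor of platelets, had 163, 96.6 and 49.1 in crisis and 368, 339 and 361 in young WT (log2 -1.94, SE 0.398, adjusted p = 0.0617). Mmrn1, a platelet granule protein, had 5.42, 1.12 and 7.57 in crisis and 30.5, 68.8 and 267 in young WT (log2 -4.10, SE 0.88, adjusted p = 0.068). Gp1ba, another subunit of the receptor to which Gp9 belongs, lay the other way, at 196, 206 and 289 in crisis and 155, 173 and 147 in young WT (log2 0.51, adjusted p = 0.246).

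Among the lists of other blood lineages, genes passed only in that of T and NK cells. In several of these lists the median moved when young WT 3 was left out. Of 12 myeloid priming genes tested, 0 passed, the median was -1.54, and -0.61 over the 7 tested without young WT 3, with Irf8 at 35.0, 51.4 and 17.0 in crisis and 58.5, 105 and 801 in young WT (log2 -2.40, adjusted p = 0.172) and Gfi1 at 13.3, 17.3 and 8.26 in crisis and 17.8, 35.9 and 154 in young WT (log2 -1.82, adjusted p = 0.213). Of 14 B cell genes tested, 0 passed, the median was -3.24 and -1.69 without young WT 3. Cd79b, the B cell receptor subunit, had 30.7, 12.6 and 11.1 in crisis and 38.2, 92.7 and 636 in young WT (log2 -2.93, adjusted p = 0.127), and Ighm, the IgM heavy chain, had 557, 6426 and 480.5 in crisis and 8270.3, 20606 and 27662 in young WT (log2 -3.81, adjusted p = 0.136).

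In the T and NK cell list, 2 of 9 tested fell (0.598% of all genes tested did), 0 rose, and the median was -2.81. Lower in every crisis library were 6 of the 9, against 14.4% of all genes. Nkg7, a granule protein of cytotoxic cells, had 9.40, 14.9 and 5.93 in crisis and 57.3, 63.8 and 104 in young WT (log2 -2.81, SE 0.5, adjusted p = 0.0433), and Lck, the kinase of the T cell receptor, had 112, 122 and 95.0 in crisis and 285, 289 and 414 in young WT (log2 -1.56, SE 0.245, adjusted p = 0.0358). Each passed in 1 of the 6 leave-one-out fits. Zap70 had 0, 15.9 and 0 in crisis and 21.6, 25.9 and 43.5 in young WT (log2 -3.55, adjusted p = 0.133), and Klrd1 had 0, 3.35 and 2.50 in crisis and 20.4, 26.9 and 52.4 in young WT (log2 -3.68, adjusted p = 0.0729). The 9 other members of the list, Cd3e and Cd8a among them, averaged under 10 counts and were not tested.

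Of 6 mast cell, basophil and eosinophil genes tested, 0 passed and the median was -0.46, with Cpa3 at 5.35, 18.4 and 3.72 in crisis and 34.3, 27.9 and 111 in young WT (log2 -2.54, adjusted p = 0.114) and Hdc at 9.49, 4.52 and 18.3 in crisis and 25.5, 24.9 and 183 in young WT (log2 -2.27, adjusted p = 0.177). Of 9 monocyte and macrophage genes tested, 0 passed and the median was -0.36, with Ccr2, the monocyte chemokine receptor, at 16.3, 46.1 and 24.5 in crisis and 95.5, 121 and 349 in young WT (log2 -2.54, adjusted p = 0.0727) and Cx3cr1 at 8.05, 2.30 and 4.94 in crisis and 16.6, 11.0 and 67.9 in young WT (log2 -2.12, adjusted p = 0.188). Of 10 late neutrophil genes, 0 passed, the median was 0.56, and 1.62 over the 9 tested without young WT 3, and the highest level of any member in any library was 532, of Ngp in young WT 3.

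In the stroma and endothelium list, 1 of 7 tested fell (0.598% of all genes tested did), 0 rose, and the median was -0.63. Vim, vimentin, an intermediate filament that erythroid cells lose as they mature and that stroma and leukocytes carry, had 115, 89.4 and 134 counts in crisis and 588, 638 and 1758 in young WT (log2 -2.95, SE 0.405, adjusted p = 0.0275), with a log2 of -2.45 without young WT 3. Pecam1 had 28.2, 30.8 and 29.5 in crisis and 88.0, 98.9 and 475 in young WT (log2 -2.41, adjusted p = 0.091). Endothelial Cdh5 and Kdr lay between 0 and 9.24 in every library. For the lists of other cell types, the part of their cells in the genes that fell was not tested.

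**Figure D4:**
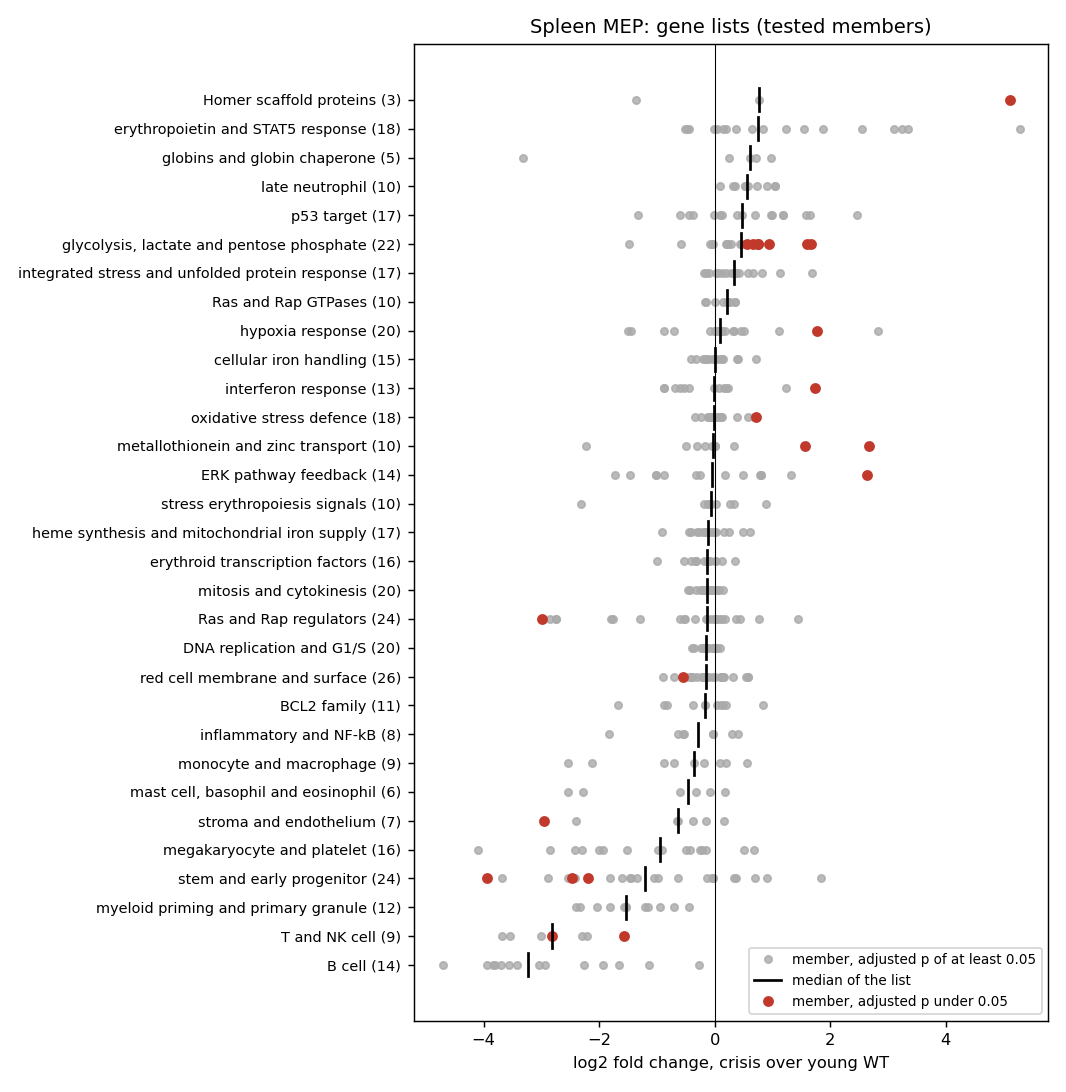
Log2 differences (crisis minus young WT) of the tested members of 31 gene lists, 1 point per gene and a bar at each list's median, with genes that passed filled in colour. Medians run from -3.24 for B cell genes to 0.78 for the Homer genes, and the glycolysis list, at 0.45, has 7 genes that passed.

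The same 6 mice gave bone marrow MEP, and the crisis effect was compared between the tissues as the spleen minus marrow difference of each mouse. Of 13974 genes tested, 0 passed with limma (0%), and 807 had an unadjusted p under 0.05. The smallest adjusted p was 0.187. With the mouse as a random block 0 passed as well, with a smallest adjusted p of 0.183. Without crisis 1, 5 passed. These tests do not show that the tissues respond alike.

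The marrow values of some of the genes above are given here. Hif3a had 4185, 3142 and 5131 counts in marrow MEP in crisis and 1073, 1439 and 1249 in young WT marrow MEP, and the difference between the tissues was 0.09 (SE 0.117, adjusted p = 0.912). Mt2 had 4549, 11500 and 16808 in crisis and 1255, 1288 and 779.8 in young WT marrow (-0.46, SE 0.257, adjusted p = 0.857). Homer2 had 153, 1523 and 2116 in crisis and 22.2, 32.7 and 7.11 in young WT marrow (-0.28, SE 0.468, adjusted p = 0.931). In all 3 genes the marrow groups did not overlap.

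Crisis 1 lay nearer to young WT in marrow than in spleen for some genes. Ldha had 26496, 41956 and 47240 in crisis and 28606, 26697 and 24436 in young WT marrow, with crisis 1 inside the young WT range, while in spleen crisis 1 was above it. Ccnd3 had 23838, 13196 and 8241 in crisis and 22624, 24984 and 25971 in young WT marrow, and Fam117a had 7842, 2728 and 2435 in crisis and 7246, 7243 and 6966 in young WT marrow. In marrow, crisis 1 was inside the young WT range for Ccnd3 and above it for Fam117a, and in spleen it was below young WT for both.

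Of the genes that passed in spleen, Vim, Fkbp1a and Fn1 had the smallest adjusted p for the difference between the tissues, and the 3 crisis mice lay apart from the 3 young WT mice in each. Vim differed by -1.88 (SE 0.243, adjusted p = 0.187), with marrow values of 1162, 629.5 and 931 in crisis and 1668, 996 and 3664 in young WT. Fn1 differed by 2.29 (SE 0.347, adjusted p = 0.234), with marrow values of 82.7, 129 and 222 in crisis and 36.3, 44.5 and 83.8 in young WT. Fkbp1a, the cytoplasmic binding partner of the drug FK506, differed by 0.96 (SE 0.128, adjusted p = 0.187). Slc16a3 was higher in every crisis library of both tissues. It had 969, 1257 and 1640.5 in crisis and 163, 122 and 137 in young WT marrow (-1.48, SE 0.318, adjusted p = 0.531).

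**Figure D5:**
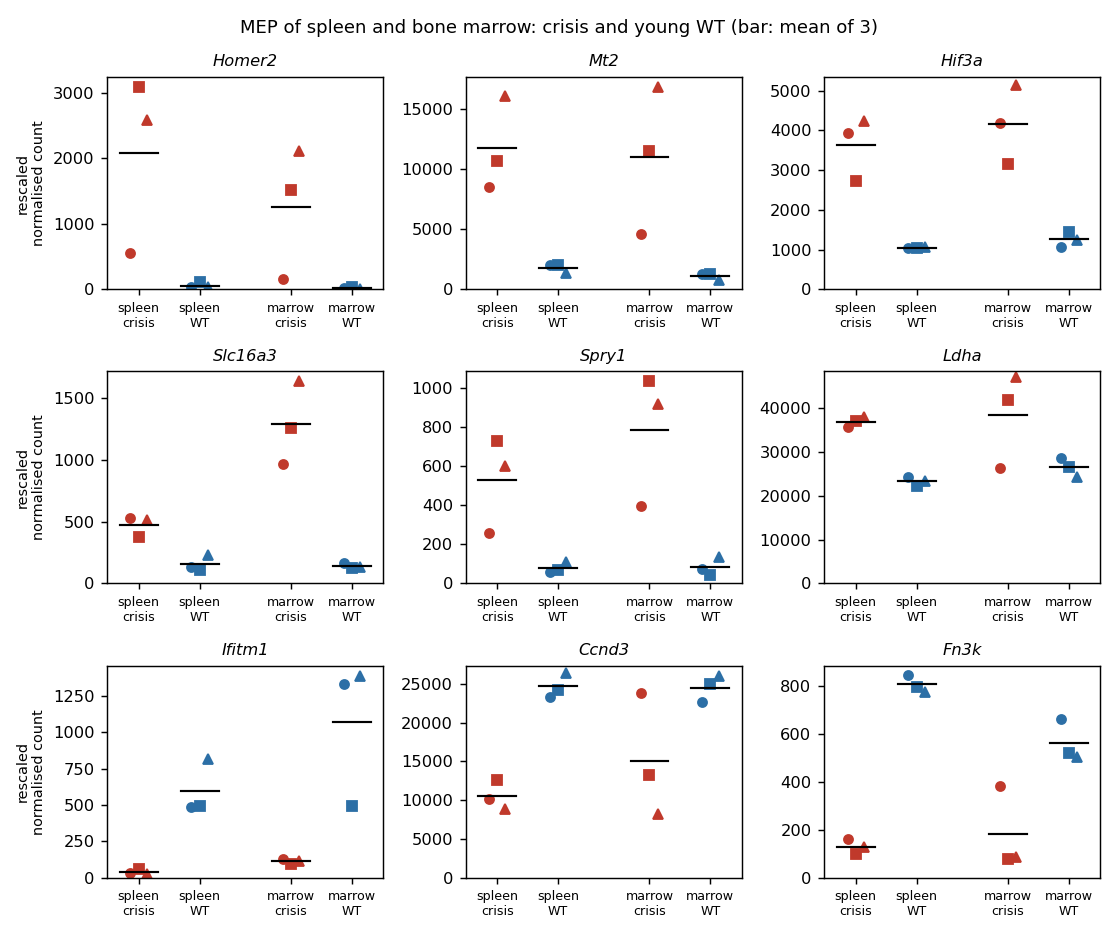
Normalised counts (linear axes from 0, bars at the mean of 3) of 9 genes in MEP of the same 6 mice, from left to right spleen crisis, spleen young WT, marrow crisis and marrow young WT, 1 point per library. Hif3a, Mt2 and Homer2 are higher in all crisis libraries of both tissues, and for Ldha, Ccnd3 and Fn3k marrow crisis 1 lies nearer to young WT than the other marrow crisis libraries.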

How the data were processed

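RNA of sorted spleen MEP was sequenced from 3 crisis and 3 young WT mice, called biological replicates in the series' design text. MEP were sorted by a published protocol that the labels cite; the gate itself is not given in the sources used here. Libraries were made with the KAPA mRNA HyperPrep kit, per the labels' protocols. Bowtie2 2.2.0, RSEM, DESeq2 and GRCm38 are named in the submitters' processing notes, without roles. The deposited table holds normalised gene counts (a signal, not whole reads) for 26286 genes, of which 25607 were matched to symbols of GENCODE M21. Each value lies on steps of its column, so no count model was used. A second deposited table holds regularised log2 values and served as an alternative. All columns belong to a sample of the series.

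The 6 columns were rescaled by median ratio, genes with a mean under 10 were left out, and log2(value + 1) was fitted with limma 3.58.1 (trend and robust, R 4.3.3) in these 6 libraries, two-sided, with Benjamini-Hochberg adjustment over all genes tested. The tissue comparison used the spleen minus marrow difference of each mouse. Marker sums were compared with the exact permutation test. P-values rest on 3 mice a group. Estimated depth was 29.9 to 43.5 M reads per library.

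Genes were named by rule: Rasa3, the 10 highest and 10 lowest log2 differences among genes that passed without overlap, and in each list the 2 members with the largest difference and no overlap. A few genes, some of them named by this rule, are not reported here, and the marker sums are without them. The lists (32, with 507 genes in 31 of them, of which 441 were tested and 22 passed) and their members were chosen with earlier results of these data known, so their counts are descriptions. The list of gate and identity genes had 0 of 13 tested that passed and a median of -0.33. Promoters come from RefSeq (GRCm38.p6). Figures were drawn with matplotlib 3.10.9. One whole spleen library, whose labels contradict each other, was left out. The later spleen MEP stages entered only the alternatives that fit all spleen MEP libraries, with and without that mouse.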

Additional observations from a re-analysis of the deposited data

How the results depend on the processing

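Besides the 159 genes that passed, the count was 929 without rescaling (503 higher, 426 lower; the median of all genes then lay at 0.19), 5 with all spleen MEP libraries in 1 fit (172 without the mouse whose labels contradict each other), 24 with age as a covariate, 6 with neither trend nor robust moderation, 8 to 900 with a replicate left out, and, chosen after seeing the data, 363 with the several-step columns as a covariate (43 higher, 320 lower) and 6 with robust moderation and no trend. With each column scaled to the same total, 177 passed, 62 higher and 115 lower, so 35% were higher against 49.1%. Among the several-step libraries alone 197 passed, of which 33 were among the 159. With that covariate, and among those libraries alone, crisis is set against young WT 3 only, a single library taken to vary like the others, so these counts do not separate the column construction from that mouse. Quantile normalisation, a pseudocount of 10, no filter, a filter at 50 and the regularised log2 table gave 136 to 230. The difference between tissues gave 36 genes without rescaling and 0 to 5 with a replicate left out. Rasa3 (log2 0.04) turned to -0.048 with the same total, -0.0017 with quantiles, -0.471 with the several-step covariate, -0.463 among several-step libraries alone, and ranged from -0.152 to 0.293 with a replicate left out, below 0 without crisis 2 (-0.030), young WT 1 and young WT 2 (-0.022). Hmox1 turned to 0.17 with quantiles. The cause was not tested. None of the 29 genes named by rule that passed was reversed over the 21 alternatives. The groups of these genes did not overlap, so fits that only leave out a replicate could hardly reverse them. No paired analysis was possible because the groups come from different mice, and their replicate numbers follow accession order and pair none of them.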

Other observations

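Several genes outside the lists passed in spleen MEP and were chosen here after their values were seen. Gdf3, a ligand of the transforming growth factor family, had 2749.5, 7805 and 5102 normalised counts in crisis and 665, 597 and 834 in young WT (log2 2.79, SE 0.33, adjusted p = 0.0208), with no overlap, and passed in 3 of the 6 leave-one-out fits. Gab2, an adaptor below cytokine and KIT receptors, had 1532, 2847 and 3106 in crisis and 481, 396 and 911 in young WT (log2 2.09, SE 0.35, adjusted p = 0.0408). Plek2, a pleckstrin-family protein of erythroid cells, had 456, 963 and 395 in crisis and 78.8, 48.8 and 129 in young WT (log2 2.80, SE 0.434, adjusted p = 0.0358). C5ar2, a receptor for the complement fragment C5a, had 807, 3219 and 2256 in crisis and 134, 121 and 359 in young WT (log2 3.32, SE 0.554, adjusted p = 0.0408). Crisis 1 or crisis 3 was the lowest crisis library in each of these 4, and no crisis library reached the young WT range.

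Others passed in both directions. Xpo7, an exportin that terminal erythroid cells need, had 4182, 4301 and 3642 in crisis and 1830.2, 2042 and 2566 in young WT (log2 0.92, SE 0.14, adjusted p = 0.0358), and Tmcc2 had 4741, 4822 and 4104 in crisis and 2074, 2079 and 2507 in young WT (log2 1.04, SE 0.116, adjusted p = 0.0147). Slc22a3, an organic cation carrier, had 197, 89.6 and 140.5 in crisis and 860.0, 999.8 and 804 in young WT (log2 -2.70, SE 0.284, adjusted p = 0.0147), and Apoe, the lipid carrier apolipoprotein E, had 329, 278 and 342 in crisis and 805, 1035 and 1173 in young WT (log2 -1.65, SE 0.184, adjusted p = 0.0147).

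Some genes of integrins and actin fell. Genes of matrix and cell junctions passed in both directions, as Fn1 and Tjp1 rose and Dsp fell (log2 -4.68). The integrin subunits Itga6 and Itgal had 188, 123 and 141 and 41.6, 102 and 50.5 in crisis, against 342, 457 and 385 and 325, 432 and 766 in young WT (Itga6 log2 -1.40, adjusted p = 0.0408; Itgal log2 -2.97, adjusted p = 0.0298). Talin, Tln1, which joins integrins to actin and is switched on by Rap1, had 18265, 16749 and 17402 in crisis and 27521, 24270 and 23152 in young WT (log2 -0.51, SE 0.0934, adjusted p = 0.0455). Fmnl1, an actin-nucleating formin of blood cells, had 79.5, 93.3 and 69.5 in crisis and 407, 610.0 and 1289.6 in young WT (log2 -3.08, SE 0.392, adjusted p = 0.021), and Evl, an actin regulator of the same surface complexes, had 14.8, 15.9 and 7.41 in crisis and 106, 105 and 514 in young WT (log2 -3.78, SE 0.654, adjusted p = 0.0413). Young WT 3 was the highest library for Itgal, Fmnl1 and Evl, but not for Itga6 or Tln1. Itga6, Tln1 and Evl each passed in 1 of the 6 leave-one-out fits, Itgal in 2 and Fmnl1 in 3.

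Gm42418, a locus that overlaps a copy of ribosomal RNA, took 5.03, 5.08 and 3.32% of the counts of the crisis libraries and 3.14, 3.87 and 1.97% of those of the young WT libraries.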
